A study of Rattus norvegicus with 6 samples.

Results

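The genes described here encode the actin cytoskeleton and targets of serum response factor (SRF). The set held 37 genes, chosen by symbol: the actins, the proteins that turn over, crosslink and contract actin filaments, 2 tubulins, and targets known to respond to SRF. A gene counted as measured where a probe set of the array was annotated to that gene alone, and it was then read from the probe set with the highest mean log2 value. This gave values for 32 of the 37 genes, out of 14217 named genes on the array. Actb, Cfl1, Myl6 and Tuba1a were annotated only on probe sets shared with other genes and have no value here, and Thbs1 was not analysed here. Actg1, the cytoplasmic gamma-actin, closely resembles beta-actin in sequence. How far its probe set also reads Actb RNA was not tested.

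The samples were rat pituitaries kept as whole-organ cultures. There were 3 samples that received GnRH (gonadotropin-releasing hormone) at 10 nM, and 3 control samples were cultured without a named agent. GnRH is the hypothalamic peptide that drives the gonadotropes, the pituitary cells that secrete LH and FSH. The question was which transcripts of the cytoskeleton differed between these cultures. The length of the treatment, and the strain, age and sex of the animals, are not given in the labels. No label says that the 3 samples of a group came from separate animals or cultures. The p-values thus measure sample-to-sample spread, which within the GnRH group could be technical alone. The controls differed among themselves in sex-linked genes, whose values are given below. Since each array measured a whole gland, fewer cells of a type and less RNA per cell cannot be told apart.

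Actin exists as single molecules and as filaments, and cells shift between these states when they change shape, move granules or contract. Free actin monomers hold the coactivator MRTF in the cytoplasm, and when they are used up MRTF enters the nucleus and joins SRF on a DNA element called the CArG box. Through this loop the actin genes and many of their partners are themselves SRF targets. A second class of SRF targets, the immediate early genes, is switched on by MAP kinase through ternary complex factors. In gonadotropes, actin remodelling is known to follow GnRH receptor activation.

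Of the 37 genes, 31 had 1 or more start sites in a RefSeq promoter table (GRCr8; 250 bases before to 50 after each start), giving 38 promoters. The CArG box, searched on both strands as CC, then 6 bases that are each A or T, then GG, occurred in 5 of these promoters, belonging to 4 genes, and in 1.64% of all 33469 promoters of the same length. These stretches are shown because Actg1 and Fhl2 are 2 of the 4 genes whose groups separated below. The Actg1 stretch lies at chr10:106121007-106121066 on the minus strand, with the box 90 to 81 bases before the start. Fhl2 has boxes at 2 of its starts, in stretches at chr9:52954601-52954660 and chr9:52923350-52923409 on the minus strand. Cnn2 has one at chr7:10370349-10370408 on the minus strand and Fhl1 at chrX:139638369-139638428 on the plus strand. Srf itself, which is not among the 37, carries 2 boxes within chr9:21923970-21924049 on the plus strand. All are written on the strand of the gene, with the CArG box in capitals.
Actg1: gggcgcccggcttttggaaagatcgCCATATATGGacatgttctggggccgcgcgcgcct
Fhl2, first start: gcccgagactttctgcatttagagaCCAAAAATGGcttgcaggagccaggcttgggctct
Fhl2, other start: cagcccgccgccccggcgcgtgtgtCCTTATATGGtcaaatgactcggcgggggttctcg
Cnn2: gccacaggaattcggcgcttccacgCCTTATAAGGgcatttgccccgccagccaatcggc
Fhl1: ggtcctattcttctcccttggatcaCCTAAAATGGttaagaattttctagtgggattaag
Srf: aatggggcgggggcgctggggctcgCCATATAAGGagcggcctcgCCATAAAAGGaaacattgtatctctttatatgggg
A match describes these letters only and was not tied to binding of SRF.

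One array, control replicate 3, was unlike controls 1 and 2, and this touches most of the values that follow. Across all probe sets its log2 values correlated with GnRH replicates 1 to 3 at 0.990, 0.988 and 0.991 (Pearson), against 0.983 and 0.986 with controls 1 and 2, which correlated at 0.994 with each other. Xist, the X-inactivation RNA expressed in females, measured 9.73, 9.16 and 9.49 (log2) in the GnRH arrays, against 3.91 and 3.66 in controls 1 and 2 and 9.77 in control 3. Low Xist thus occurred in controls 1 and 2 and in no GnRH array. Eif2s3y, a Y-linked gene, measured 6.48 and 6.56 in controls 1 and 2. In control 3 it was 2.76, and in the GnRH arrays 2.42, 2.29 and 2.06. The comparison of all arrays is thus uneven in Xist and Eif2s3y, and the part of this in the differences below was not tested. Pituitary identity was clear in every array, with Gh1 (growth hormone) between 14.09 and 14.18 in GnRH arrays and between 14.20 and 14.25 in controls on the log2 scale. Median intensity ran from 64.7 to 65.9 in GnRH arrays and from 64.5 to 67.0 in controls, on the linear scale.

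None of the 32 genes passed the test. By limma with Benjamini-Hochberg adjustment over all 31042 probe sets and a threshold of 0.05, 0 genes were higher and 0 were lower with GnRH, where 0.422% of all probe sets were higher, 0.0419% were lower and 0.464% passed in either direction. The lowest limma adjusted p among the 32 was 0.125, for Myl9. At an unadjusted limma p under 0.05, 3 genes were higher (Myl9, Zyx and Lmna) and 5 were lower (Fhl2, Actn1, Actg1, Vcl and Ccn2), with backgrounds of 6.6% and 5.66% of all probe sets. The 3 GnRH arrays lay above all 3 controls in Zyx and Myl9 and below them in Actg1 and Fhl2. That is 2 of 32 genes each way, where 7.06% of all probe sets lay above and 9.62% below. The median log2 difference was -0.09 over the 32 genes and -0.02 over all probe sets, and 13 genes lay above 0 and 19 below.

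The intervals describe the spread between these samples. Since no label says that the samples were separate cultures, they do not bound the size of a biological change. The 95% limma intervals had half-widths from 0.19 to 0.71 on the log2 scale, with a median of 0.27. In 25 of the 32 genes the interval stayed within a 1.5-fold change in either direction. It reached beyond that in 7 genes, which were Actn1, Vcl, Cald1, Tagln, Myl9, Fhl2 and Ccn2.

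**Figure D1:**
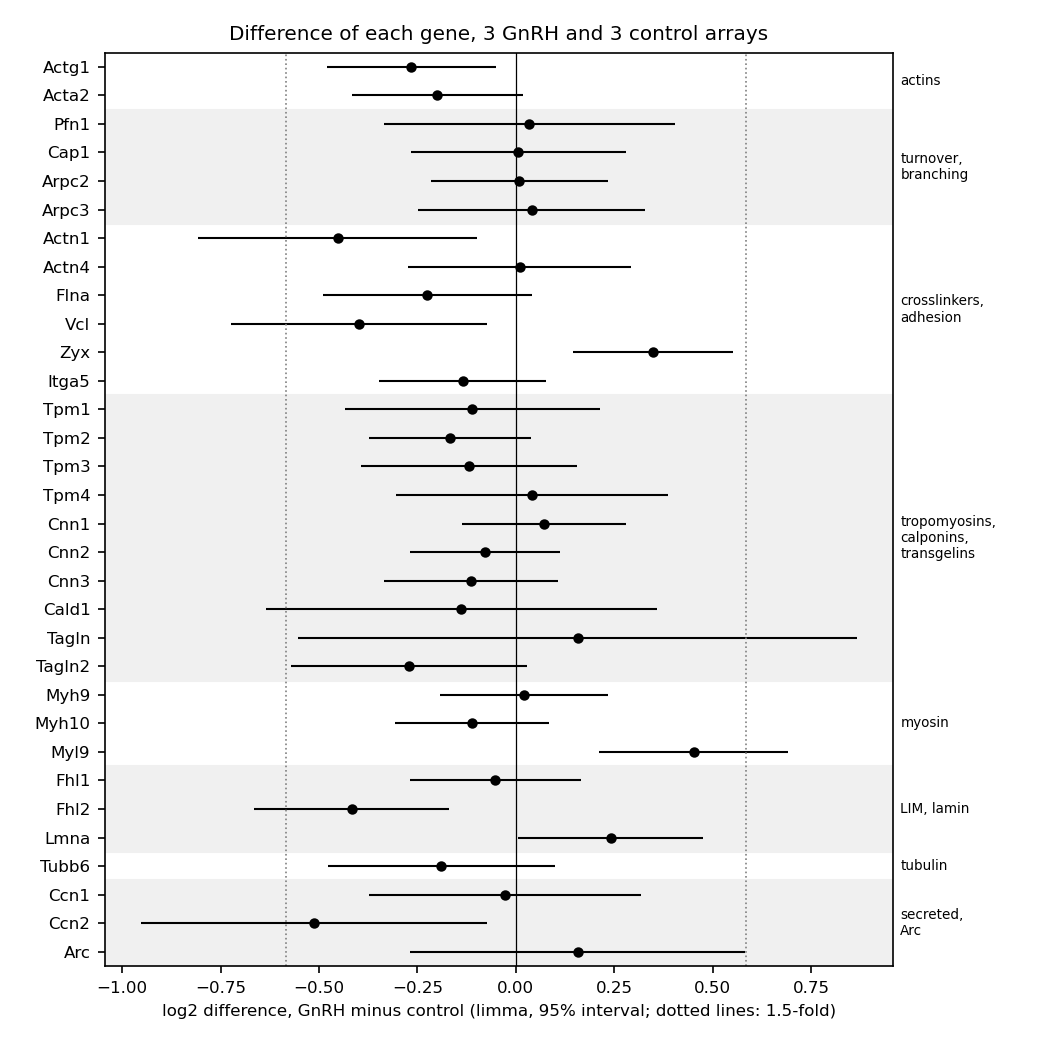
Log2 difference of each gene, GnRH minus control (x axis), with genes down the page by role. Points are limma estimates from 3 GnRH and 3 control arrays, bars are 95% intervals and dotted lines mark a 1.5-fold change; Myl9 (0.45) and Ccn2 (-0.51) lie at the ends, and all limma adjusted p-values are 0.125 or higher.

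The actins measured were Actg1 and Acta2, the smooth muscle alpha-actin. Actg1 had log2 values of 12.39, 12.13 and 12.22 in GnRH cultures, against 12.56, 12.56 and 12.42 in controls. The GnRH values all lay below the controls, with the nearest pair GnRH 1 and control 3. The difference was -0.27 ± 0.10 (SE), with an interval from -0.48 to -0.05 (limma adjusted p = 0.307). The other Actg1 probe set gave -0.18, with overlapping groups. Acta2 had 7.63, 7.56 and 7.41 in GnRH cultures, against 7.60, 7.78 and 7.81 in controls. Its groups overlapped through GnRH 1 and control 1, and the difference was -0.20 ± 0.10 (limma adjusted p = 0.446). Both genes kept a negative difference under all 15 alternatives of processing, including the 6 that left out an array.

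The proteins of filament turnover showed differences close to 0 with all arrays, and larger ones for 3 of the 4 genes without control 3, none past the threshold. These were Pfn1 (profilin, which feeds monomers to growing ends), Cap1 (cyclase-associated protein, which helps recycle monomers), and Arpc2 and Arpc3 (subunits of the Arp2/3 complex, which branches filaments). Their log2 differences ran from 0.01 for Cap1 and Arpc2 to 0.04 for Arpc3, and the sign of each turned under 2 of the 3 scaling alternatives. The spread of the controls exceeded that of the GnRH group in all of them. Arpc3 had 9.04, 9.10 and 9.29 in GnRH cultures, against 8.91, 9.01 and 9.39 in controls, so that the GnRH values sat between control 3 and the other controls. Pfn1 and Cap1 were placed in the same way. Without control 3 the differences were 0.25 ± 0.11 for Pfn1, 0.18 ± 0.10 for Arpc3 and 0.15 ± 0.09 for Cap1, with GnRH above both remaining controls and limma adjusted p-values of 0.169, 0.270 and 0.325. Arpc2, the gene with the narrowest interval of the 4 with all arrays, had a difference between -0.22 and 0.23.

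Among the crosslinking and adhesion proteins, members went in both directions. Zyx encodes zyxin, a LIM protein of focal adhesions and stress fibres. It had 8.19, 8.14 and 8.11 in GnRH cultures, against 7.83, 7.90 and 7.67 in controls. The groups did not overlap and the GnRH arrays were close to each other. The difference was 0.35 ± 0.09, or 1.27-fold (limma adjusted p = 0.160). Actn1, the non-muscle alpha-actinin that ties filaments into bundles, had 8.65, 8.12 and 8.46 in GnRH cultures, against 8.59, 8.84 and 9.15 in controls. GnRH 1 lay just above control 1, and all other GnRH values lay below all controls. The difference was -0.45 ± 0.16 (limma adjusted p = 0.295), and on its other probe set, where the groups did not overlap, -0.47 ± 0.12 (limma adjusted p = 0.141). Vcl encodes vinculin, which links integrin adhesions to actin. It had 8.24, 8.20 and 8.75 in GnRH cultures, against 8.65, 8.77 and 8.97 in controls, with GnRH 3 among the controls. The difference was -0.40 ± 0.15 (limma adjusted p = 0.314). The other Vcl probe sets gave -0.33, with GnRH below all controls, and -0.25, with overlapping groups. Flna, the filament crosslinker filamin A, differed by -0.22, and Itga5, the fibronectin receptor subunit integrin alpha-5, by -0.14, both with overlapping groups. Actn4, a close relative of Actn1, differed by 0.01 and turned sign under 2 of the 3 scalings.

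**Figure D2:**
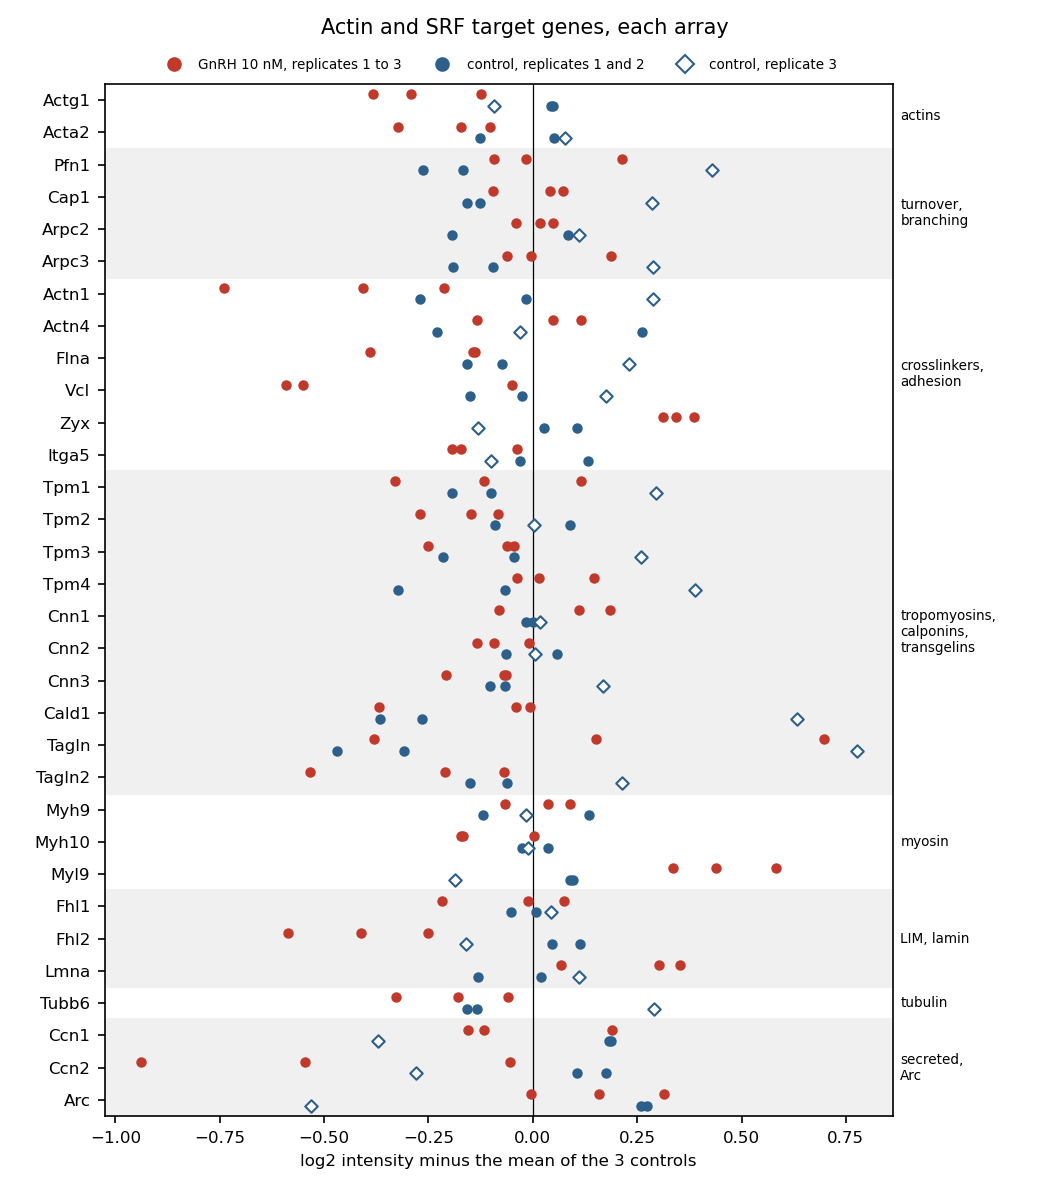
Log2 intensity of each gene in each array minus the mean of its 3 controls (x axis), with genes down the page by role. Red points are GnRH arrays, blue points controls 1 and 2, and open diamonds control 3, which is the highest of the 6 arrays in 16 of the 32 genes.

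The proteins that line or regulate the filament showed no separated groups in any of 10 genes, each read from its probe set with the highest mean. Groups did separate on some other probe sets of Tpm1 and Tpm3, given below. Tropomyosins wrap along actin filaments, and their log2 differences were -0.11 for Tpm1, -0.17 for Tpm2, -0.12 for Tpm3 and 0.04 for Tpm4, the last of which turned negative with repeated quantile normalization and with cyclic loess. The calponins Cnn1, Cnn2 and Cnn3, which bind actin and restrain myosin, differed by 0.07, -0.08 and -0.11. Cnn1, a smooth muscle marker, had 4.56, 4.49 and 4.29 in GnRH cultures, against 4.37, 4.36 and 4.39 in controls. It belonged, with Tpm2 and Ccn1, to the 3 genes whose mean lay below the median of all probe sets. The table holds no detection calls, so these genes cannot be called absent.

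Tagln and Cald1 had the widest control spreads of the 32 genes. Tagln encodes transgelin (SM22), a classical SRF target of smooth muscle. Tagln had 8.31, 7.78 and 8.86 in GnRH cultures, against 7.69, 7.85 and 8.94 in controls. GnRH 3 and control 3 were high, GnRH 2 and controls 1 and 2 were low, and the difference was 0.16 ± 0.32 (limma adjusted p = 0.874). Without control 3 it was 0.54 ± 0.23 (limma adjusted p = 0.170), and it was negative without control 1 or without GnRH 3, so its sign depends on the arrays used. Cald1, caldesmon, which inhibits myosin on the filament, had 7.996, 7.67 and 8.03 in GnRH cultures, against 7.67, 7.77 and 8.67 in controls. Only control 3 was high, and the difference was -0.14 ± 0.22 with all arrays and 0.18 ± 0.12 without control 3. Tagln2, the transgelin of non-muscle cells, differed by -0.27 ± 0.13 (limma adjusted p = 0.455).

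Of the myosin genes measured in the set, the light chain gene Myl9 differed most. Myl9 encodes one of the light chains whose phosphorylation turns on non-muscle and smooth muscle myosin II. It had 7.47, 7.57 and 7.71 in GnRH cultures, against 7.22, 7.23 and 6.95 in controls. All GnRH arrays lay above all controls, and control 3 was the lowest. The difference was 0.45 ± 0.11, or 1.37-fold, with an interval from 0.21 to 0.69 (limma adjusted p = 0.125). Without control 3 the value was smaller, at 0.36 ± 0.10, but passed the threshold (limma adjusted p = 0.0476), with 7.44% of all probe sets passing in that fit. The heavy chains lay nearer to 0. Myh9 differed by 0.02 ± 0.10 and Myh10 by -0.11 ± 0.09, with overlapping groups, and Myh9 turned negative under 2 of the 3 scalings. The light chain genes Myl12a and Myl12b lie outside the set and were read from the lists described below. Myl12a, brighter than Myl9, had a mean of 9.21 in GnRH cultures, against 9.50 in controls. All its GnRH values lay below all controls, and the difference was -0.29 ± 0.10 (limma adjusted p = 0.294). Myl12b differed by -0.05 ± 0.09, with overlapping groups. The rise in Myl9 was thus not shared by these light chain genes.

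Fhl2 and Lmna, read with the LIM proteins and the lamin, differed in opposite directions. Fhl2 is a LIM-only coactivator and SRF target that also binds SRF. It had 6.94, 6.61 and 6.78 in GnRH cultures, against 7.30, 7.24 and 7.03 in controls. All GnRH arrays lay below all controls, and control 3 was the control nearest to them. The difference was -0.42 ± 0.11, a fold of 0.749 (limma adjusted p = 0.168), and -0.32 on the other probe set, where the groups overlapped. Without control 3 the brighter probe set gave -0.50 ± 0.11 and passed (limma adjusted p = 0.0209), where 7.44% of all probe sets did. That fit keeps only the controls with low Xist. Against control 3 alone Fhl2 differed by -0.26, and by 0.02 on its other probe set. Its relative Fhl1 differed by -0.05 ± 0.10, with 7.84, 8.05 and 8.13 in GnRH cultures, against 8.07, 8.01 and 8.10 in controls. Of the 4 genes with a CArG box in the promoters searched, Fhl2 and Actg1 had separated groups, where 16.7% of all probe sets did in either direction, and nothing is read from so few genes. Myl9 had no promoter in the table, nor had Tagln, Actn4, Arc, Cap1 or Actb, so none of these was searched. Lmna encodes lamins A and C of the nuclear envelope, which influence MRTF and SRF activity. On its brighter probe set it had 7.93, 7.64 and 7.88 in GnRH cultures, against 7.44, 7.59 and 7.69 in controls, with GnRH 2 among the controls, and the difference was 0.24 ± 0.11 (limma adjusted p = 0.397). On its other probe set it had 7.74, 7.80 and 7.89 in GnRH cultures, against 7.32, 7.30 and 7.40 in controls. There the groups were well apart, with a difference of 0.47 ± 0.09 and the lowest limma adjusted p of all 64 probe sets, 0.0509.

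**Figure D3:**
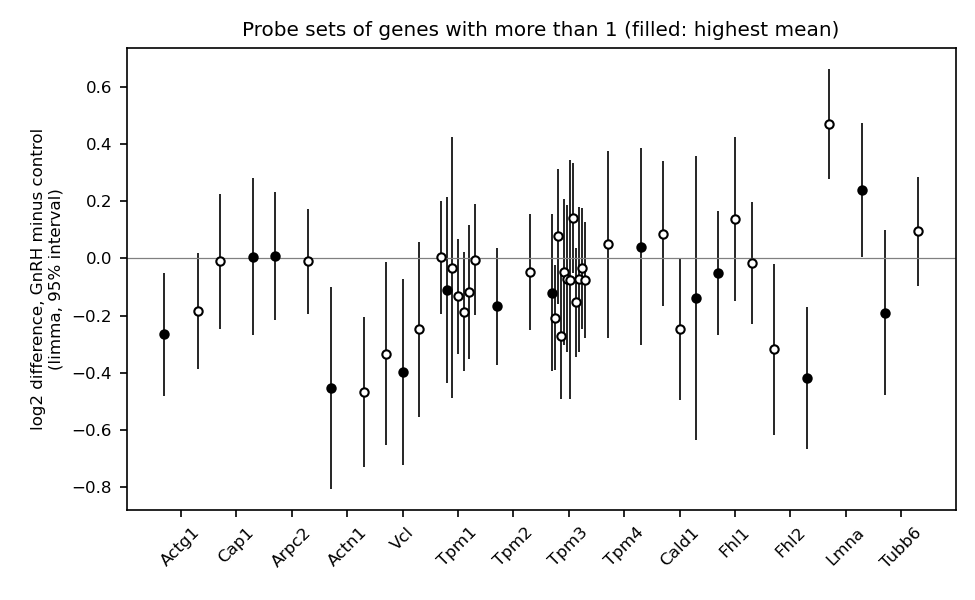
Log2 differences, GnRH minus control (y axis), for every probe set of the 14 genes that have more than 1, with 95% limma intervals. Filled points are the probe sets with the highest mean; Actn1, Vcl and Fhl2 lie below 0 on all their probe sets and Lmna above 0 on both.

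The choice of probe set mattered for some genes. In all, 64 probe sets were annotated to the 32 genes alone, and 14 genes had more than 1. In 7 of these 14 all probe sets had the same sign. None of the 64 passed the threshold, and the GnRH arrays lay above all controls in 4 and below in 8, where 7.06% and 9.62% of all probe sets did so. Tpm3, with 12 probe sets, ran from -0.27 to 0.14. Groups separated at both of these ends, with GnRH below at -0.27 and above at 0.14. They also separated, with GnRH below, on Tpm3 probe sets at -0.21 and -0.15 and on a Tpm1 probe set at -0.19.

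The secreted matricellular proteins and Arc had their lowest control value in control 3. Ccn2 (CTGF, a secreted SRF and YAP target that promotes matrix production) had 7.70, 7.21 and 6.81 in GnRH cultures, against 7.86, 7.93 and 7.47 in controls. GnRH 1 lay above control 3, and GnRH 2 and 3 lay below all controls. The difference of -0.51 ± 0.20 was the largest of the 32 in size (limma adjusted p = 0.334), but without GnRH 3 it was -0.30, smaller in size than Vcl at -0.57 and Actn1 at -0.48 in the same fit. Ccn1 (CYR61) had 5.20, 5.16 and 5.50 in GnRH cultures, against 5.49, 5.50 and 4.94 in controls, a difference of -0.03 ± 0.16 whose sign turned under 2 of the 3 scalings. Arc, the activity-regulated cytoskeletal protein first known from neurons, had 7.76, 7.59 and 7.91 in GnRH cultures, against 7.86, 7.87 and 7.06 in controls. In Ccn1 and Arc control 3 was the lowest of the 6 arrays. In Arc the difference of 0.16 ± 0.19 with all arrays became -0.11 ± 0.10 without control 3. Tubb6, the 1 tubulin measured, had 8.84, 8.69 and 8.96 in GnRH cultures, against 8.86, 8.89 and 9.31 in controls, a difference of -0.19 ± 0.13 that was -0.04 ± 0.10 without control 3.

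The values also varied with the arrays used. Leaving out control 3 turned the sign of 5 of the 32 genes, where leaving out control 1 turned 9, control 2 turned 4, and GnRH 1, 2 and 3 turned 6, 1 and 6. Control 3 lay above both other controls in 19 of the 32 genes (59.4%) and below both in 8 (25%), whereas over all probe sets it lay above in 33.2% and below in 46.9%. It was the highest of the 6 arrays in 16 of the 32 genes, or 50%, and in 18.1% of all probe sets. GnRH 2 was the lowest array in 14 genes, or 43.8%, and in 19.1% of all probe sets. The median difference of the GnRH arrays over the 32 genes was -0.03 against controls 1 and 2 and -0.24 against control 3. In 12 genes the signs of these comparisons were opposite, with 9 higher than controls 1 and 2 but lower than control 3, among them Pfn1, Tpm4, Tagln and Cald1, and 3 the other way. Without control 3, Myl9 was higher and Fhl2 was lower past the threshold, and the GnRH arrays lay above both remaining controls in 7 genes and below them in 4, where 18.8% and 25.5% of all probe sets did so. That fit sets arrays with high Xist against arrays with low Xist, and the part of this difference in the results was not tested.

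**Figure D4:**
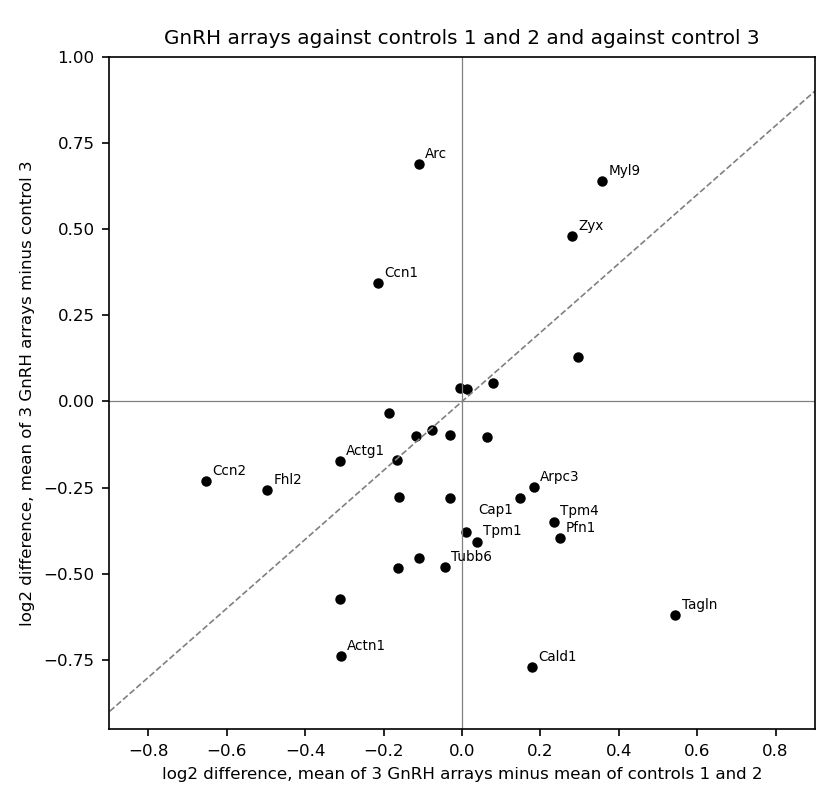
Log2 difference of the mean of 3 GnRH arrays from the mean of controls 1 and 2 (x axis) and from control 3 (y axis), 1 point per gene; on the dashed line both are equal. Named genes are those whose groups did not overlap or in which control 3 differed from the mean of the other controls by more than 0.4; Tagln and Cald1 lie right of 0 and below 0.

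Genes of the same pathway outside the 37 were read from 5 lists, with 109 genes measured. Of these, 3 rose, 0 fell and the rest did not pass, and at an unadjusted limma p under 0.05 there were 12 higher and 13 lower. Over all probe sets 0.422% rose and 0.0419% fell, and at the unadjusted threshold 6.6% were higher and 5.66% lower. Arhgef1, a guanine nucleotide exchange factor that acts downstream of G proteins of the G12 family, had 8.02, 8.20 and 8.08 in GnRH cultures, against 7.28, 7.20 and 7.01 in controls. It rose by 0.93 ± 0.10 (limma adjusted p = 0.00586), the sole call among 25 measured genes of the list that holds SRF, its cofactors and signalling genes. Srf had 7.29, 7.23 and 7.03 in GnRH cultures, against 6.83, 7.05 and 6.71 in controls, overlapping through GnRH 3 and control 2, and differed by 0.32 ± 0.11 (limma adjusted p = 0.291). Mrtfa, the actin-regulated SRF coactivator, differed by 0.21 ± 0.09 with all GnRH values above the controls (limma adjusted p = 0.404).

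Enah, the Ena/VASP protein that lengthens filaments, had 6.60, 6.69 and 6.47 in GnRH cultures, against 6.02, 6.03 and 6.14 in controls. It rose by 0.52 ± 0.09 (limma adjusted p = 0.0445) and was the 1 call among 47 other genes of actin dynamics and crosslinking. Mcl1, an anti-apoptotic protein and immediate early target of SRF, rose by 0.85 ± 0.11 (limma adjusted p = 0.0144), with 8.86, 8.78 and 8.61 in GnRH cultures, against 7.68, 8.001 and 8.02 in controls. The other 9 immediate early SRF targets did not pass. Neither did any of 18 other myosin and contractile genes or 9 other tubulins, whose median differences were -0.07 and -0.11. Of the 10 immediate early targets, GnRH lay above all controls in 3, Mcl1, Junb (0.57) and Dusp1 (0.42), and below in 0. Over all probe sets 7.06% lay above and 9.62% below. Control 3 was the lowest control in 6 of the 10. Junb differed by 0.25 from controls 1 and 2 and by 1.20 from control 3.

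**Figure D5:**
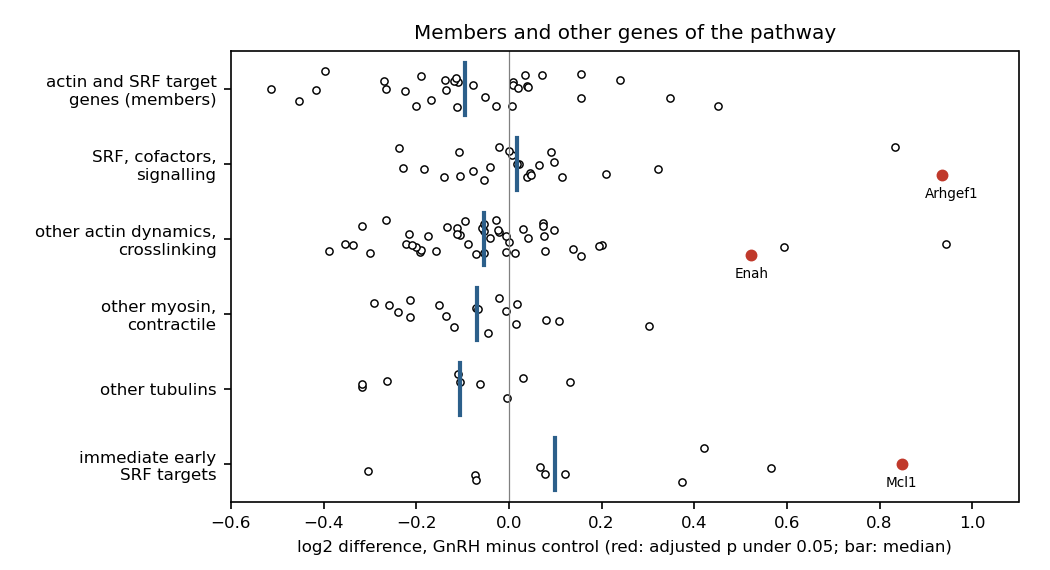
Log2 difference, GnRH minus control (x axis), of the 32 genes and of 5 lists of other pathway genes, 1 point per gene with a random vertical offset. Red points passed the limma threshold (Arhgef1, Enah and Mcl1), open points did not, and blue bars are medians, from -0.11 for other tubulins to 0.10 for immediate early targets, which is -0.13 without control 3.

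Acta2, Tagln, Cnn1 and Myl9 are also smooth muscle and pericyte genes, so markers of such cells that are not among the 37 were read alongside. None of 11 smooth muscle and pericyte markers passed, and their median difference was -0.09, with 2 genes above 0 and 9 below. Their summed linear intensity was 954 to 1031 in GnRH arrays and 1016 to 1070 in controls. Groups separated in 2 of the 11, Mcam (-0.18) and Cspg4 (-0.09), both lower with GnRH, where 16.7% of all probe sets separated in either direction. The sum for 9 fibroblast markers was 1088 to 1360 in GnRH arrays and 1045 to 1525 in controls, with control 3 lowest, and none of these genes passed. The sum joins opposite directions. Groups separated in 4 of the 9, where 16.7% of all probe sets did. Col1a2 was higher with GnRH (0.61), and Dcn (-0.63), Lum (-0.54) and Postn (-0.30) were lower. For 9 endothelial markers, with none past the threshold, the sum was 1286 to 1435 in GnRH arrays and 1166 to 1267 in controls. Plvap, a protein of endothelial fenestrae, was the 1 gene of these 9 whose groups separated, with 8.43, 8.66 and 8.39 (log2) in GnRH arrays, against 8.31, 8.15 and 7.81 in controls. Folliculostellate and stem-like markers summed to 659 to 840 in GnRH arrays and 926 to 1132 in controls. Among them Gfap, a glial filament protein, differed by -1.97 with separated groups (limma adjusted p = 0.0835). The others were nearer to 0, with Fxyd6 at -0.23 (groups separated), Aldh1a1 at -0.10, Sox2 at 0.02 and S100b at 0.15. The sum therefore does not describe all 5 genes alike. Posterior lobe markers summed to 201 to 322 in GnRH arrays and 328 to 393 in controls. The part of these cell types in the values of Myl9, Tagln and Acta2 was not tested.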

How the data were processed

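The deposited values were array intensities on a linear scale, 1 array per sample, which the authors, per the submitters' processing notes, had made with RMA; software and filters are not stated. RMA usually equalises distributions between arrays, which can hide a shift shared by most transcripts. Values were turned into log2 with no pseudocount. The contrast of GnRH minus control was fitted by lmFit and eBayes (limma 3.58.1, R 4.3.3), 2-sided, with neither covariate nor filter, and adjusted by Benjamini-Hochberg over 31042 probe sets, threshold 0.05. The code was checked on simulated data. Of these probe sets, 20826 had 1 gene symbol, 436 several and 9780 none listed; symbols were updated through gene identifiers against GRCr8. The number of arrays, 6, limits the precision.

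The members and lists were chosen with earlier results of these data known. All 37 members were to be described, with list genes named where they passed, plus Srf, Mrtfa and Mrtfb. Mrtfb had no probe set annotated to it alone and has no value here. The list genes Myl12a and Myl12b were added afterwards, beside Myl9, and so were Junb and Dusp1, beside Mcl1. Of 57 measured cell type marker genes, Gnrhr and Nr5a1 (gonadotrope) passed, both higher; 0 passed among somatotrope, lactotrope, thyrotrope, corticotrope, folliculostellate, smooth muscle, fibroblast, endothelial, leukocyte, red blood cell and posterior lobe markers. Alternatives covered scaling, dim probe sets, variance trend, array weights, replicate block, probe set choice and each array left out. Some results are not reported here.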

Additional observations from a re-analysis of the deposited data

How the results depend on the processing

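None of the 32 genes passed under centring on medians, repeated quantile normalization, cyclic loess, the filter on dim probe sets (29 genes left), an intensity trend, the replicate block, means over probe sets or the probe set with the smallest p. With array weights, where control 3 weighed least (0.298), limma called 2 genes higher (Zyx at 0.28 and Myl9 at 0.36) and 1 lower (Fhl2 at -0.44). With 1 array left out, from 0 to 1 gene was higher and from 0 to 1 lower, the calls being Myl9 and Fhl2 without control 3. The median over the genes stayed between -0.13 and -0.03. The count over all probe sets, 144, was 90 with quantile normalization, 93 with cyclic loess, 215 with the replicate block and 3020 with array weights, and ran from 20 (without GnRH 2) to 2309 (without control 3) with 1 array left out. Deviations of same-numbered arrays from their group means correlated at 0.16, -0.05 and 0.16, and GnRH 1 correlated best with control 2, so the numbers were not taken to pair the samples. Chosen after the data were seen, the comparison without control 3 had GnRH above the controls in 7 genes and below in 4, and called 8 other pathway genes higher and 2 lower, where all arrays gave 2, 2, 3 and 0. In that comparison 7.44% of all probe sets passed. The cause of these shifts was not tested. Sign was the same in all alternatives for 18 of the 32 genes, including all 8 with an unadjusted limma p under 0.05, and turned in some alternative for 14. Those 8 were picked from the same arrays, so their steady sign is no separate support. Background correction could not be varied without scanner files.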
